A study of Homo sapiens with 6 samples.

Results

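Of the 60691 genes in a count table from SW1353 cells, 10 were examined here as the genes of vascular endothelial growth factor (VEGF) signalling and of hypoxia-linked angiogenic factors. They were chosen by gene symbol: the ligand genes VEGFA, VEGFB, VEGFC and PGF, the receptor genes FLT1, KDR, NRP1 and NRP2, and the secreted factor genes ANGPTL4 and ADM. Each symbol matched 1 row. SW1353 is an established human chondrosarcoma line, taken from a cartilage tumour of bone. The study asked how SIRT1, an NAD+-dependent deacetylase, relates to transcription driven by HIF-2α and to malignancy of these cells. RNA was sequenced from 3 shSIRT1 cultures, which carried a lentiviral short hairpin RNA labelled as directed against SIRT1, and from 3 shfirefly cultures, which carried a control hairpin against firefly luciferase. Both groups had been grown in 3% oxygen for 48 h after seeding, so the comparison is between hairpins within low oxygen, in a single line.

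VEGF proteins are secreted dimers that bind receptor tyrosine kinases, above all on endothelial cells, and low oxygen raises VEGFA transcription through hypoxia-inducible factors. VEGFA signals mainly through KDR. FLT1 binds VEGFA, VEGFB and PGF tightly, signals weakly, is also made in a soluble form, and is regarded as a decoy that limits the VEGFA available to KDR. The neuropilins NRP1 and NRP2 have no kinase domain and act as co-receptors for VEGF ligands and for class 3 semaphorins. Tumour cells, cartilage tumours included, are a source of VEGFA for nearby vessels.

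The libraries held 24993064 to 29564361 counts in shSIRT1 and 28556696 to 32044191 in shfirefly. SIRT1 had 12.9, 13.2 and 14.7 CPM (a gene's count relative to its TMM-scaled library size) in shSIRT1, against 26.0, 24.8 and 24.03 CPM in shfirefly. EPAS1, which encodes HIF-2α, had 245, 226 and 227.5 CPM in shSIRT1, against 477, 483 and 409 CPM in shfirefly. The sample names and the design text name SIRT1 as the hairpin's target, whereas the treatment protocol names EPAS1. Both genes were lower in every library labelled shSIRT1. The 15 chondrocyte markers summed to 97.8 to 99.1 CPM in shSIRT1 and 92.7 to 101.4 CPM in shfirefly, and of the 7 tested 3 were higher (SOX9, MATN3 and RUNX3) and 3 lower (ACAN, HAPLN1 and RUNX2). The cartilage collagen gene COL2A1 averaged 0.332 CPM in shSIRT1 and 0.0340 CPM in shfirefly, and COL9A1 had no counts in any library. In all, 16591 genes were tested, of which 52.8% differed between the groups (adjusted p under 0.05 by edgeR's quasi-likelihood test), 26.8% being higher and 26.0% lower in shSIRT1. That is 4449 higher and 4311 lower genes, against 6225 and 3021 where libraries were scaled by their totals alone. Summed mesenchymal markers were 19650 to 20720 CPM in shSIRT1 and 31360 to 34710 CPM in shfirefly, FN1 alone averaging 9735 CPM in shSIRT1 and 19860 CPM in shfirefly. VIM, COL1A1, COL1A2 and PDGFRB were also called lower, while COL3A1, PDGFRA and S100A4 did not pass. Summed epithelial markers were 357 to 374 CPM in shSIRT1 and 310 to 320 CPM in shfirefly. KRT18 was the only one called higher, and KRT8, KRT14, CDH1 and CLDN7 did not pass.

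Transcripts of the VEGF ligand genes VEGFA, VEGFB, VEGFC and PGF were lower in shSIRT1. FLT1 was the receptor gene that rose, and KDR was almost undetected. Of the 10 genes 8 had enough counts for the test, and of these 7 fell and FLT1 rose, while 26.0% of all tested genes fell and 26.8% rose. ANGPTL4 and KDR were removed by the filter on low counts. The median log2 fold change of the 8 tested genes was -0.27, beside 0.005 over all tested genes. The ranges of TMM-scaled CPM in the 2 groups did not overlap for any of the 8 tested genes, nor for 59.7% of all tested genes. Of the 2 untested genes, ANGPTL4 had ranges apart at a few counts per library, and KDR had ranges that overlapped. In bulk RNA fewer cells making a transcript and less of it per cell cannot be told apart.

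**Figure D1:**
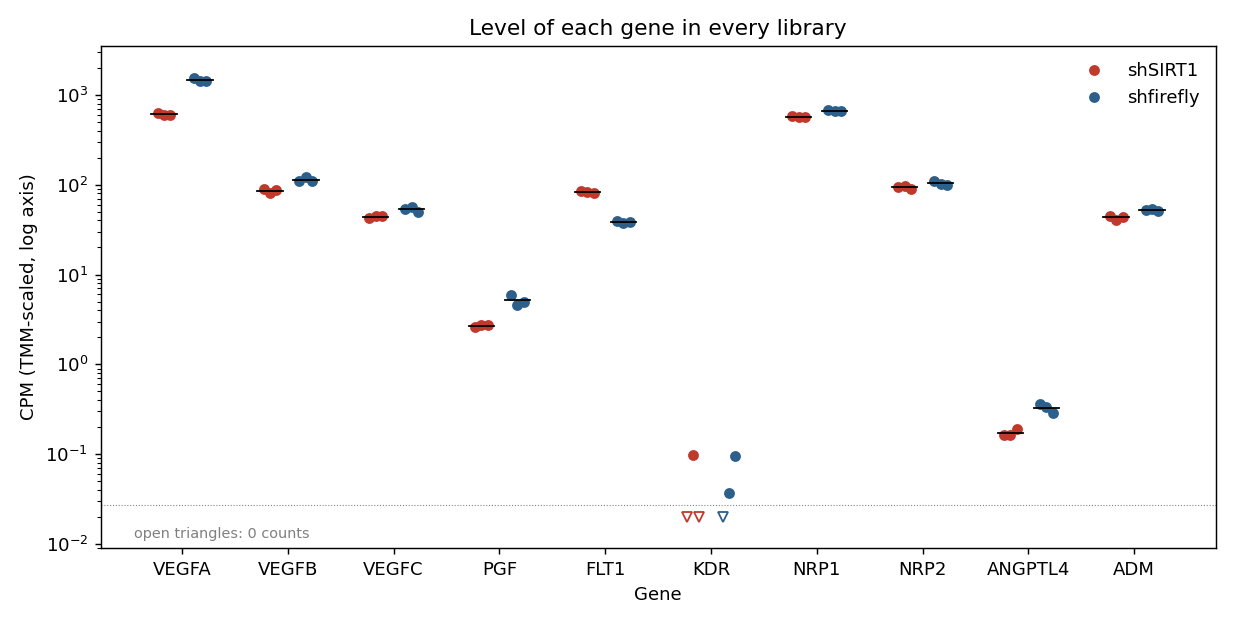
CPM of the 10 genes on a log axis, with 1 point per library, shSIRT1 in red and shfirefly in blue, and a black line at the mean of 3; open triangles mark libraries with 0 counts. VEGFA lies near 609 CPM in shSIRT1 and 1457 CPM in shfirefly, FLT1 near 82.6 CPM in shSIRT1 and 38.5 CPM in shfirefly, and KDR at or under 0.0979 CPM in every library.

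VEGFA had the largest fall of the tested ligands. It had 629, 596 and 602 CPM in shSIRT1, against 1522, 1411 and 1437 CPM in shfirefly. The highest shSIRT1 library stood far below the lowest shfirefly library. The level was 2.39-fold lower (log2 -1.26 with SE 0.04, adjusted p = 5.2e-16 by edgeR), and 2.62% of all tested genes fell by more. By mean CPM VEGFA ranked 174th of all genes in shSIRT1 and 62nd in shfirefly. VEGFA lies on chromosome 6 (43770184 to 43786487, forward strand, GRCh38). The annotated antisense gene AL136131.3 overlaps its exons and had 12, 23 and 20 counts in shSIRT1, against 76, 30 and 47 in shfirefly, while VEGFA had at least 15755 counts in each library.

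PGF, placental growth factor, which binds FLT1 but not KDR, was scarce and also fell, by a smaller factor than VEGFA. It had 2.58, 2.74 and 2.71 CPM in shSIRT1, against 5.99, 4.55 and 4.90 CPM in shfirefly. The 3 shSIRT1 values lay close together, and shfirefly replicate 1 stood above the other control libraries. The level was 1.93-fold lower (log2 -0.95 with SE 0.15, adjusted p = 1.5e-05 by edgeR) and the log2 fold change was -0.83 without shfirefly replicate 1. PGF lies on chromosome 14 (74941834 to 74955784, reverse strand).

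VEGFB and VEGFC fell less. VEGFB, a ligand of FLT1 studied mostly in heart and lipid metabolism, had 88.8, 81.3 and 87.5 CPM in shSIRT1, against 111, 122 and 109 CPM in shfirefly. That was a 1.33-fold lower level (log2 -0.41 with SE 0.05, adjusted p = 3.1e-07 by edgeR), which became -0.22 with a correction for GC content and length. The longest VEGFB transcript has a GC content of 66.7%. VEGFC, the lymphatic growth factor that acts through FLT4, had 1296, 1389 and 1182 counts in shSIRT1, against 1643, 1514 and 1550 in shfirefly, which is 44.2 ± 1.73 CPM against 53.2 ± 3.02 CPM (SD, n = 3). Neither VEGFB nor VEGFC overlapped between the groups. The VEGFC level was 1.20-fold lower (log2 -0.27 with SE 0.05, adjusted p = 0.00026 by edgeR). With scaling by library totals alone, where the median of all tested genes was 0.13, against 0.005 with TMM, VEGFC stood at -0.14 and VEGFB at -0.29, and both still passed the test. VEGFB lies on chromosome 11 (64234538 to 64238793, forward strand) and VEGFC on chromosome 4 (176683538 to 176792727, reverse strand).

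FLT1 was the only one of the tested genes to rise. It had 85.8, 81.9 and 80.2 CPM in shSIRT1, against 39.2, 37.6 and 38.7 CPM in shfirefly. Each group was tight and the lowest shSIRT1 library stood at more than 2-fold the highest shfirefly library. The level was 2.15-fold higher (log2 1.10 with SE 0.05, adjusted p = 7.6e-14 by edgeR), and 1.83% of all tested genes rose by more. FLT1 ranked 2563rd by mean CPM in shSIRT1 and 4959th in shfirefly. The table gives 1 count per gene, so the membrane and soluble forms of FLT1 are not separated. FLT1 lies on chromosome 13 (28300344 to 28495145, reverse strand) with no annotated gene overlapping it.

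KDR, the main signalling receptor for VEGFA, had 0, 3 and 0 counts in shSIRT1, against 0, 1 and 3 in shfirefly. The ratio of scaled counts, shSIRT1 over shfirefly, was 0.760 with exact 95% bounds of 0.111 and 4.50, which cover counting error only. A library with no KDR counts could still hold up to 0.0977 to 0.115 CPM, the limit that 3 counts set. KDR lies on chromosome 4 (55078259 to 55125595, reverse strand).

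The neuropilins were lower in shSIRT1 by small amounts. NRP1, the most abundant of the 4 receptor genes, had 579, 563 and 561 CPM in shSIRT1, against 679, 662 and 666 CPM in shfirefly. Its level was 1.18-fold lower (log2 -0.24 with SE 0.03, adjusted p = 5e-06 by edgeR), and -0.12 with library totals alone (adjusted p = 0.0037). NRP2, a co-receptor for VEGFC, had 94.2, 96.4 and 88.7 CPM in shSIRT1, against 110, 101 and 99.1 CPM in shfirefly. The difference in NRP2 was a log2 fold change of -0.15 ± 0.05 SE (adjusted p = 0.011, edgeR), and the highest shSIRT1 library was close to the lowest shfirefly library. The NRP2 call was lost without shSIRT1 replicate 3 (adjusted p = 0.078), without shfirefly replicate 1 (0.087), with the GC and length correction (0.057) and with library totals alone, where the log2 fold change was -0.03 (adjusted p = 0.64, edgeR). NRP1 lies on chromosome 10 (33177492 to 33336262, reverse strand) and NRP2 on chromosome 2 (205681990 to 205798133, forward strand). Annotated antisense genes overlap exons of both, with at most 54 counts in a library for that of NRP1 and 4 for that of NRP2.

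ADM encodes adrenomedullin, a vasodilator peptide induced by low oxygen. It had 45.1, 40.8 and 43.7 CPM in shSIRT1, against 52.5, 53.7 and 51.3 CPM in shfirefly. The groups were apart and the level was 1.22-fold lower (log2 -0.28 with SE 0.05, adjusted p = 9.1e-05 by edgeR). That value was -0.17 with the GC and length correction and -0.16 with library totals alone, and passed the test in both. ADM lies on chromosome 11 (10304680 to 10307397, forward strand) with no overlapping gene.

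ANGPTL4, a secreted inhibitor of lipoprotein lipase known as a hypoxia target, was barely expressed. It had 5, 5 and 5 counts in shSIRT1, against 11, 9 and 9 in shfirefly. The ratio of scaled counts was 0.524 (95% exact interval 0.261 to 1.01, counting error only), and a fit with no filter on low counts gave an adjusted p of 0.327 by edgeR. ANGPTL4 lies on chromosome 19 (8363289 to 8374373, forward strand), where exons of the antisense gene RAB11B-AS1 overlap it. RAB11B-AS1 had 99, 129 and 110 counts in shSIRT1, against 237, 232 and 266 in shfirefly, so that it outnumbered ANGPTL4 in every library. Whether counting used the strand is not given in the sources used here, so a share of the few ANGPTL4 counts may belong to the antisense gene.

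**Figure D2:**
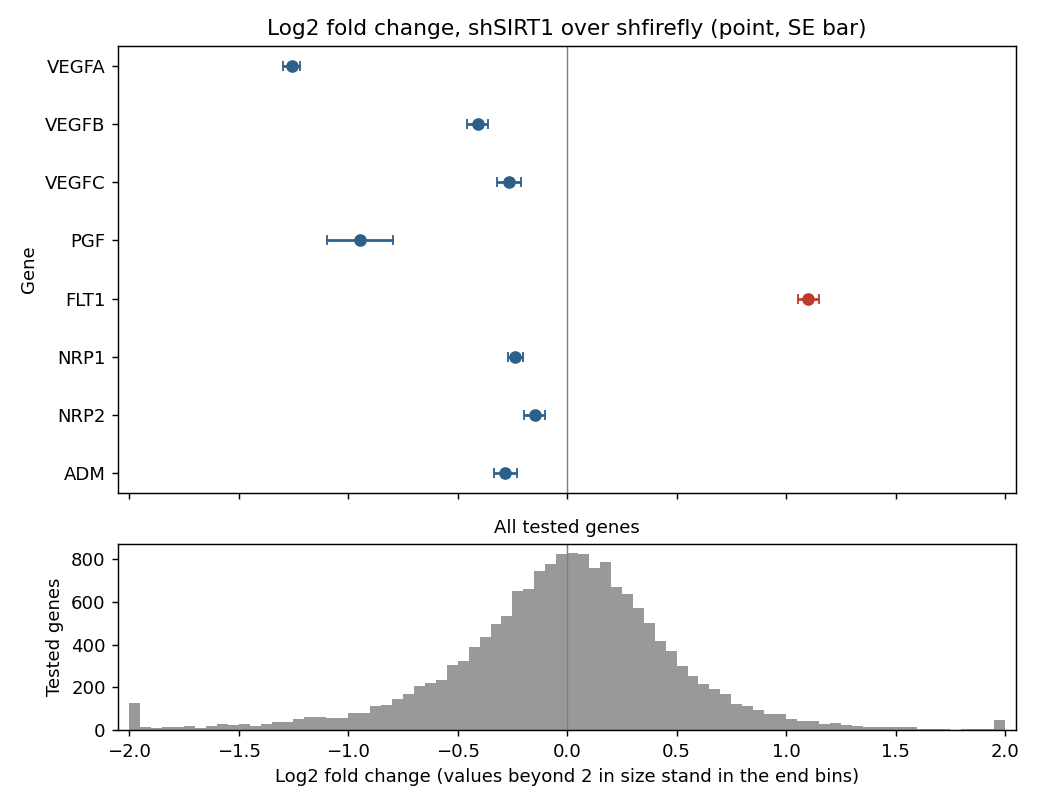
Top, log2 fold change of the 8 tested genes, shSIRT1 over shfirefly, with SE bars, red for higher and blue for lower in shSIRT1; bottom, histogram of the same quantity over 16591 tested genes. VEGFA at -1.26 and FLT1 at 1.10 lie in the tails of the histogram, and NRP2 at -0.15 lies in its centre.

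Set per length, the levels separated abundant from scarce genes in both groups. On CPM per kilobase of merged exons, VEGFB, NRP1 and VEGFA averaged 55.6, 49.3 and 42.2 in shSIRT1, and 73.7, 58.1 and 101 in shfirefly. VEGFC and ADM followed at 18.3 and 15.9 in shSIRT1 and 21.97 and 19.3 in shfirefly. NRP2 and FLT1 overlapped in shSIRT1, with 6.38 to 6.94 and 6.38 to 6.83, and were apart in shfirefly, with 7.13 to 7.89 and 2.99 to 3.12. PGF, ANGPTL4 and KDR were last, at 0.449, 0.0694 and 0.00497 in shSIRT1 and 0.864, 0.132 and 0.00680 in shfirefly. The place of VEGFA in this order depends on the length used. Its merged exons span 14431 bases in 4 blocks, which is most of the gene, while its principal transcript is annotated at 1199 bases. Per kilobase of principal transcript VEGFA came first, at 508 in shSIRT1 and 1215 in shfirefly, with NRP1 next at 96.5 in shSIRT1 and 114 in shfirefly.

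Shares within a family do not depend on the scaling between libraries. VEGFA made up 36.7%, 36.5% and 35.5% of the length-scaled counts of the 4 ligand genes in shSIRT1, against 52.6%, 48.8% and 51.9% in shfirefly. The mean difference was -14.9 percentage points (p = 0.1 in a two-sided exact permutation test, the least possible with 3 libraries a group). It was -5.96 percentage points with principal transcript lengths, where VEGFA took 85.7% ± 0.334 in shSIRT1 and 91.6% ± 0.615 in shfirefly (SD, n = 3). With no length scaling VEGFA took 82.1% in shSIRT1 and 89.4% in shfirefly. By merged exons VEGFB held 47.7% ± 1.00 of the ligand counts in shSIRT1 and 37.3% ± 1.76 in shfirefly, and VEGFC 15.7% ± 0.952 in shSIRT1 and 11.1% ± 0.395 in shfirefly (SD, n = 3). The VEGFB share also depends on the length: by principal transcript it was 10.5% in shSIRT1 and 6.24% in shfirefly, and with no length scaling 11.6% in shSIRT1 and 7.003% in shfirefly. PGF held 0.386% in shSIRT1 and 0.437% in shfirefly by merged exons, and its ranges overlapped.

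Among the receptor genes FLT1 held 10.7%, 10.4% and 10.4% of the length-scaled counts in shSIRT1, against 4.46%, 4.42% and 4.53% in shfirefly. The mean difference was 6.04 percentage points (exact two-sided permutation test, p = 0.1). NRP1 held 78.8% ± 0.423 in shSIRT1 and 84.7% ± 0.376 in shfirefly, and NRP2 10.7% ± 0.380 in shSIRT1 and 10.8% ± 0.408 in shfirefly (SD, n = 3). The ratio of VEGFA to FLT1 transcripts, per kilobase of merged exons, was 6.38, 6.34 and 6.54 in shSIRT1, against 33.8, 32.7 and 32.3 in shfirefly. That ratio fell by 2.36 on the log2 scale, a change that does not depend on the lengths used (exact two-sided permutation test, p = 0.1). The ratio of PGF to FLT1 fell by 2.04 on the same scale, while that of VEGFC to NRP2 overlapped between the groups, with 2.58 to 2.92 in shSIRT1 and 2.80 to 3.19 in shfirefly.

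**Figure D3:**
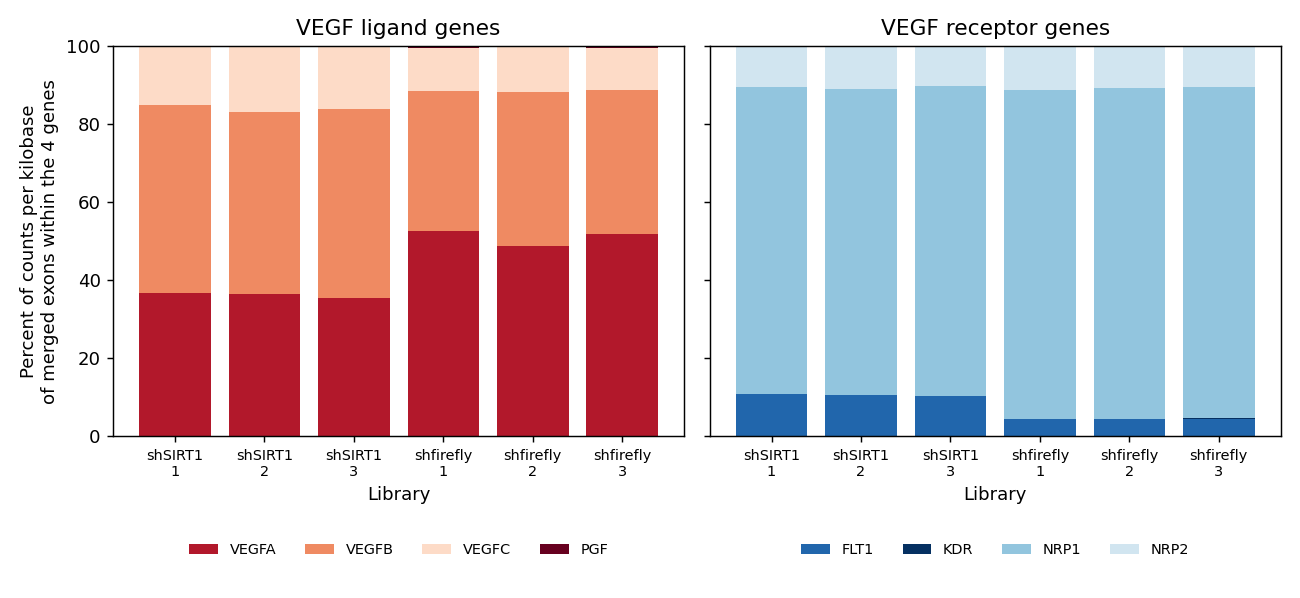
Stacked bars of the percent of counts per kilobase of merged exons that each gene held among the 4 VEGF ligand genes (left) and the 4 VEGF receptor genes (right), 1 bar per library. VEGFA takes about 36.2% in shSIRT1 and 51.1% in shfirefly, and FLT1 10.5% in shSIRT1 and 4.47% in shfirefly. The height of the VEGFA part depends on the length used. By principal transcript VEGFA takes 85.7% in shSIRT1 and 91.6% in shfirefly. PGF and KDR are too scarce to be seen as more than a line.

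The sequence upstream of the start site is shown for FLT1, which rose, and for VEGFC, a ligand gene that fell, because the core of the hypoxia response element, the site that HIF dimers bind, can be looked up in it. Windows of 300 bases around RefSeq start sites (GRCh38.p14) were given for 8 of the 10 genes, and VEGFA and NRP1 were not among them. The first 250 bases, which end just before the start site, are printed 5′ to 3′ in the direction of the gene, with each ACGTG or GCGTG core, read on either strand, in capitals. They are chr13:28495129-28495378 on the reverse strand for FLT1 and chr4:176792923-176793172 on the reverse strand for VEGFC.
FLT1: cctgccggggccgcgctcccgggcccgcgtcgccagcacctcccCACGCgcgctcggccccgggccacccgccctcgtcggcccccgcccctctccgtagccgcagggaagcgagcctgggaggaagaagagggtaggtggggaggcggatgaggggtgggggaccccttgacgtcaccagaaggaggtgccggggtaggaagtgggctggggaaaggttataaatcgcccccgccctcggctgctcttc
VEGFC: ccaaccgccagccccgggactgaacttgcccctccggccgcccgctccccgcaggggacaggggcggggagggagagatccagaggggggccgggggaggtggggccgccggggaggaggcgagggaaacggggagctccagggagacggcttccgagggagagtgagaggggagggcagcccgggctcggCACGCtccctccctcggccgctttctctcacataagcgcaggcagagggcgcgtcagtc
Each held 1 core, CACGC, which is GCGTG on the other strand. Over the whole windows, 6 of the 8 genes held a core (FLT1, VEGFB, VEGFC, PGF, ADM and ANGPTL4) and NRP2 and KDR held none. Of all 24541 such windows given for genes in the count table, 53.1% held at least 1 core, and 59.4% of those of tested genes did. These shares count windows and not genes: a gene can have more than 1 window, and the 8 genes had 9. The palindrome CACGTG holds ACGTG on both strands. These matches describe letters and not binding, which was not measured.

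Beyond these genes, lists of angiogenic genes chosen for their known roles were read from the same fit. Over all 16591 tested genes 26.8% rose and 26.0% fell, with a median log2 fold change of 0.005. Scaling by library totals alone gave 6225 higher and 3021 lower genes over all, with a median of 0.13. A list of 10 genes held VEGFD, FLT4, NPPC and 7 genes of other cell-surface proteins (PDGFRA, PDGFRB, GPC1, SDC1, SDC2, CD44 and CD63). The 7 surface genes were the ones tested, of which 1 rose and 4 fell, with a median log2 fold change of -0.33. With library totals alone 2 rose and 3 fell. VEGFD, a lymphatic growth factor, had 18 counts in shSIRT1, against 3 in shfirefly. Its scaled count ratio was 6.08 with exact 95% bounds of 1.78 and 32.2 for counting error only. FLT4, the receptor of VEGFC and VEGFD, had 23 counts in shSIRT1, against 30 in shfirefly. PDGFRB, a receptor of platelet-derived growth factor, fell to 50.3 ± 2.25 CPM in shSIRT1, against 71.7 ± 2.88 CPM in shfirefly, and the tetraspanin gene CD63 fell by 0.34 on the log2 scale. SDC1, a heparan sulfate proteoglycan that holds growth factors, rose to 184 ± 5.74 CPM in shSIRT1, against 155 ± 5.89 CPM in shfirefly (SD, n = 3).

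The semaphorins and plexins that work with neuropilins split in direction. Of 13 genes 10 were tested, and 4 rose and 5 fell, beside 26.8% and 26.0% of all tested genes, with a median of -0.17. With library totals alone the median was -0.05, beside 0.13 over all tested genes. SEMA3C, a neuropilin ligand, rose to 136 ± 5.18 CPM in shSIRT1, against 91.4 ± 7.92 CPM in shfirefly, and the receptor gene PLXNA2 rose to 40.8 ± 2.92 CPM, against 26.4 ± 1.353 CPM. SEMA3F, a ligand of NRP2 with anti-angiogenic activity, fell to 15.1 ± 1.04 CPM in shSIRT1, against 23.8 ± 0.724 CPM in shfirefly, and PLXNA4 fell to 68.75 ± 2.54 CPM, against 112 ± 6.40 CPM (SD, n = 3). SEMA3A, the classical ligand of NRP1, was too scarce to test, with 34 counts in shSIRT1, against 12 in shfirefly.

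Among genes of the adrenomedullin axis, CALCRL, the adrenomedullin receptor, had 4 counts in shSIRT1, against 6 in shfirefly, and its partner RAMP2 had none in any library. RAMP1, another CALCRL partner, averaged 4.68 CPM in shSIRT1 and 4.76 CPM in shfirefly and did not pass the test, and ACKR3, a scavenger receptor that also binds adrenomedullin, fell to 23.3 ± 1.28 CPM in shSIRT1, against 27.4 ± 2.13 CPM in shfirefly (SD, n = 3). Of 12 genes 6 were tested. None rose and 5 fell, beside 26.8% and 26.0% of all tested genes, with a median of -0.50. With library totals alone, and with the GC and length correction, 3 fell. ADM2, a relative of adrenomedullin, fell to 13.9 ± 0.877 CPM in shSIRT1, against 26.6 ± 1.78 CPM in shfirefly, and MME, a protease that degrades small peptides, to 9.06 ± 1.06 CPM, against 18.9 ± 0.603 CPM (SD, n = 3). PAM, the enzyme that amidates adrenomedullin and that was picked after its values were seen, fell to 486 ± 10.2 CPM in shSIRT1, against 796 ± 34.4 CPM in shfirefly (SD, n = 3).

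Of 13 angiopoietin, TIE and angiopoietin-like genes 5 were tested, with 1 higher and 4 lower, beside 26.8% and 26.0% of all tested genes. With so few genes the median of -0.75 is the value of TEK alone. With library totals alone, and with DESeq2, 1 of these genes rose and 3 fell. For ANGPT1 there were 21 counts in shSIRT1, against 6 in shfirefly, and for ANGPT2 there were 2 in shSIRT1, against 3 in shfirefly. TIE1, an endothelial receptor, fell to 2.19 ± 0.139 CPM in shSIRT1, against 4.31 ± 0.568 CPM in shfirefly (SD, n = 3). TEK, the angiopoietin receptor, fell by 0.75 on the log2 scale (adjusted p = 0.024, edgeR), but its call was lost without shSIRT1 replicate 3 (0.13), without shfirefly replicate 2 (0.052), with library totals alone (0.058) and with DESeq2 (0.084). LPL, the lipase that ANGPTL4 inhibits, rose to 7.87 ± 0.591 CPM in shSIRT1, against 5.22 ± 0.502 CPM in shfirefly. TIE1 and TEK were also among 12 endothelial markers, whose summed level was 11.2 to 12.1 CPM in shSIRT1 and 15.9 to 17.3 CPM in shfirefly. ROBO4 was also called lower, averaging 2.32 CPM in shSIRT1 and 4.04 CPM in shfirefly. PECAM1, VWF, ESAM, ERG and EGFL7 did not pass the test. Of these markers EMCN and SOX17 had no counts in any library, CLDN5 had 1 count in all, and CDH5 had 13 counts in shSIRT1, against 1 in shfirefly. The part of other cell types in these results was not tested. The summed level of 8 leukocyte markers was 6.53 to 8.96 CPM in shSIRT1 and 13.2 to 15.6 CPM in shfirefly, mostly CSF1R, and PTPRC had 4 counts in shSIRT1 and 8 in shfirefly.

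Other secreted regulators of vessel growth moved in both directions, as did all tested genes (26.8% higher, 26.0% lower). Of 23 pro-angiogenic factors 18 were tested, of which 5 rose, 6 fell and 7 did not pass. Their median of -0.09 turned to 0.035 with library totals alone, where 7 rose and 6 fell. The median of all tested genes moved from 0.005 to 0.13 with that change of scaling. FGF2, basic fibroblast growth factor, rose to 13.2 ± 0.734 CPM in shSIRT1, against 5.24 ± 0.418 CPM in shfirefly, and EFNB2, an ephrin, rose by a log2 fold change of 0.52. The chemokine gene CXCL8 fell to 2.97 ± 0.288 CPM in shSIRT1, against 6.84 ± 0.574 CPM in shfirefly, and PTN, pleiotrophin, to 9.90 ± 1.05 CPM, against 21.9 ± 0.548 CPM (SD, n = 3).

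Of 19 anti-angiogenic factors 13 were tested, of which 3 rose, 7 fell and 3 did not pass, with a median of -0.27. Over all tested genes 26.8% rose and 26.0% fell, with a median of 0.005. With library totals alone 4 of these factors rose and 7 fell, with a median of -0.15, beside 0.13 over all tested genes. With the GC and length correction their median was -0.12. The matrix glycoprotein gene SPARC fell to 1398 ± 17.4 CPM in shSIRT1, against 2268 ± 59.5 CPM in shfirefly. TNFSF15, a cytokine that restrains endothelial growth, rose to 34.9 ± 4.96 CPM in shSIRT1, against 13.1 ± 0.837 CPM in shfirefly, and the protease gene ADAMTS1 to 2.55 ± 0.271 CPM, against 1.26 ± 0.0938 CPM (SD, n = 3). THBS1, thrombospondin-1, the best-known member, had a log2 fold change of 0.07 that did not pass (adjusted p = 0.11, edgeR). SEMA3B and SEMA3F stand in this list and among the neuropilin partners.

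**Figure D4:**
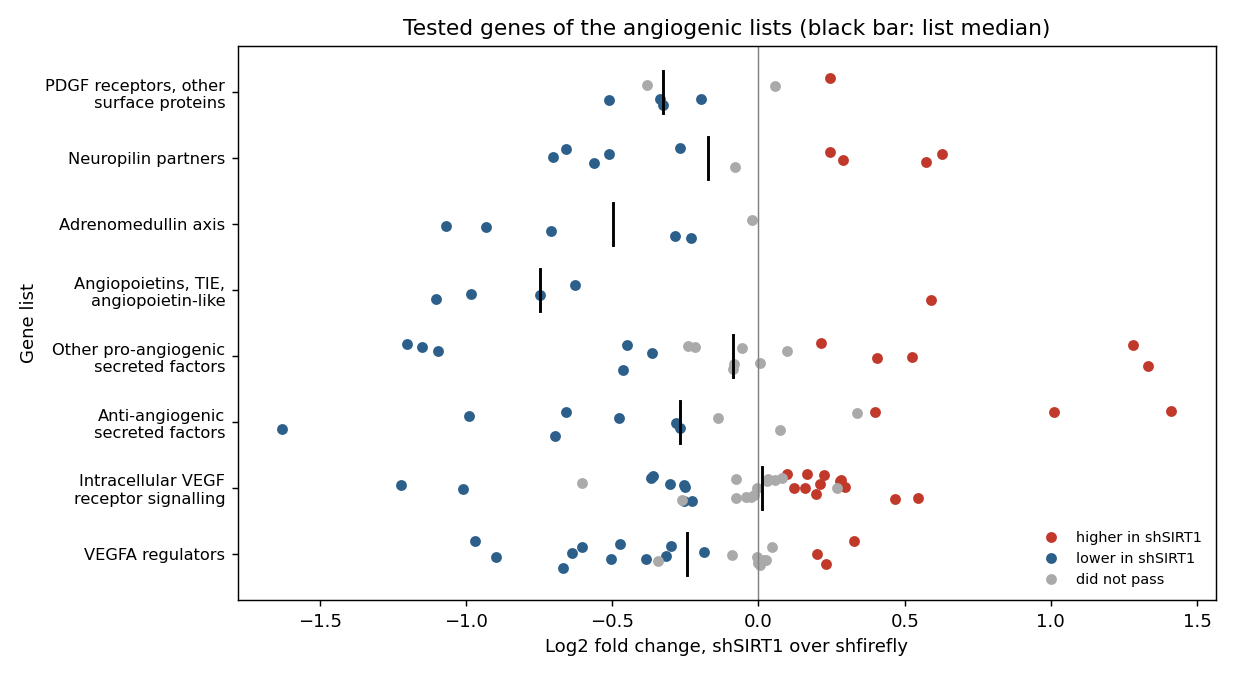
Log2 fold change, shSIRT1 over shfirefly, of the tested genes of 8 lists, 1 point per gene, red for higher, blue for lower and grey for genes that did not pass the test, with a black bar at the list median. The medians run from -0.75 for the list of angiopoietin and TIE genes, with 5 tested genes, to 0.01 for intracellular signalling. Most lists hold points on both sides of 0.

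The intracellular signalling genes that act below VEGF receptors moved in both directions, as did all tested genes (26.8% higher, 26.0% lower). Of 35 genes 34 were tested, of which 12 rose, 9 fell and 13 did not pass, with a median of 0.01. With library totals alone 18 rose and 7 fell, beside 6225 and 3021 of all tested genes. RCAN1, a feedback inhibitor of calcineurin, fell to 122 ± 2.02 CPM in shSIRT1, against 286 ± 11.02 CPM in shfirefly, and the kinase gene MAPK3 fell by 0.37 on the log2 scale. HSPB1, a small heat-shock protein phosphorylated downstream of KDR, rose to 364 ± 6.22 CPM in shSIRT1, against 249 ± 3.97 CPM in shfirefly (SD, n = 3). NFATC2 rose by a log2 fold change of 0.47 (adjusted p = 0.024, edgeR), a call lost without shSIRT1 replicate 1 (0.078), without shSIRT1 replicate 3 (0.055), without shfirefly replicate 3 (0.074) and with DESeq2 (0.12).

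Of 23 regulators of VEGFA transcription and mRNA stability 22 were tested, of which 3 rose, 11 fell and 8 did not pass, with a median of -0.24. With library totals alone 7 rose and 9 fell, beside 6225 and 3021 of all tested genes. HIF1A, the other main HIF subunit, had 882 ± 11.2 CPM in shSIRT1, against 866 ± 51.5 CPM in shfirefly, and did not pass the test. Besides EPAS1, the oxygen-sensing hydroxylase gene EGLN3 fell most, to 454 ± 30.6 CPM in shSIRT1, against 845 ± 38.2 CPM in shfirefly. ELAVL1, which binds and stabilises VEGFA mRNA, rose to 115 ± 4.94 CPM in shSIRT1, against 91.7 ± 2.24 CPM in shfirefly, and HNRNPL, which also binds VEGFA mRNA, rose to 169 ± 3.95 CPM, against 144 ± 4.73 CPM (SD, n = 3). ZFP36 and ZFP36L1, which destabilise mRNAs with AU-rich elements and were picked after their values were seen, fell by 0.60 and 0.64 on the log2 scale. Among transcription factor genes of the list, picked in the same way, ATF4 fell by 0.67, PPARD by 0.50, ARNT by 0.38 and STAT3 by 0.19. SP3 rose by 0.20, and SP1 did not pass.

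The genes whose profile over the 6 libraries lay nearest to that of VEGFA were found by the root mean square difference of centred log2 CPM, among 9332 genes that averaged 10 CPM or more. They were ALDOC, an aldolase (0.0566), APOLD1 (0.0572), GFRA2, a neurotrophic factor receptor (0.0577), RCAN1 (0.0605) and CCDC3 (0.0618). ALDOC averaged 142 ± 5.62 CPM in shSIRT1, against 331 ± 11.5 CPM in shfirefly (SD, n = 3). The nearest to FLT1 were the complement gene C7 (0.0240), HSPA1B (0.0517), MUC13 (0.0528), AL137800.1 (0.0552) and BRI3BP (0.0559). C7 averaged 59.75 ± 2.58 CPM in shSIRT1, against 27.9 ± 0.897 CPM in shfirefly (SD, n = 3). HSPA1B has a near-identical copy in HSPA1A, so its counts are uncertain.

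The authors' deposited table gives linear fold changes of 0.418 for VEGFA, 0.753 for VEGFB, 0.832 for VEGFC and 0.519 for PGF, shSIRT1 over control. In the authors' deposited table FLT1 stands at 2.15, NRP1 at 0.848, NRP2 at 0.902 and ADM at 0.822. The authors' deposited table lists ANGPTL4 at 0.526 with an adjusted p-value of 0.366, and KDR with no adjusted p-value.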

How the data were processed

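Per the labels' protocols, TRI reagent was used for RNA isolation and the TruSeq Stranded mRNA kit for libraries. Per the submitters' processing notes, Trimmomatic, STAR and DESeq2 were used with genome build GRCh38; for the read counter, annotation release and strand setting, the sources used here give nothing. The authors deposited raw read counts per gene, per the file headers. Normalized counts that the authors deposited rounded to whole numbers, and their means, were treated as a score and not used. Per gene, the authors further deposited their own comparison: a fold change as a linear ratio, its log2 value, and raw and adjusted p-values.

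Raw counts were tested with edgeR 4.0.16 in R 4.3.3: filterByExpr (16591 genes kept), TMM scaling, robust quasi-likelihood fit on group alone, Benjamini-Hochberg adjustment over all tested genes, calls at 0.05. The SE is the absolute log2 fold change over the square root of F. Gene lengths, GC content and coordinates came from GENCODE 29 (58459 genes matched by ID, without version), promoters from RefSeq. A chi-square statistic per gene ran between 2.67 and 5.58 for pairs of one group, and between 50.9 and 79.4 across groups, so each library counted as 1 replicate. The design text calls the samples of each group biological replicates. The procedure was also run on simulated counts in which few genes changed, unlike these data, so that run does not check the scaling between libraries. Alternatives were RLE factors, library totals alone, DESeq2 1.42.0, no filter, at least 1 CPM in 3 libraries, the replicate block, no robust estimation, a GC and length offset (splines with 5 degrees of freedom), and leaving out each library. For shares, the longest transcript, no length scaling and, chosen after seeing the data, the principal transcript were also used.

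The 10 genes, the lists and the tests were chosen with earlier results of these data known. Named genes were these 10, SIRT1 and EPAS1, from each list up to 2 higher and 2 lower called genes averaging 1 CPM or more with the largest change, and the 5 profiles nearest to VEGFA and to FLT1. Any other list or marker gene was picked after its values were seen. A gene that this rule names is not reported here.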

Additional observations from a re-analysis of the deposited data

How the results depend on the processing

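Under every alternative run, VEGFA, VEGFB, VEGFC, PGF, NRP1 and ADM stayed lower and FLT1 stayed higher in shSIRT1, each past the threshold (edgeR or DESeq2). VEGFA ranged from -1.28 to -1.14 on the log2 scale and FLT1 from 1.07 to 1.22. NRP2 lost its call in 4 settings, given with its values above. The number of the 10 genes that fell was 7, or 6 in those settings, and 1 rose throughout. Leaving out each library gave 6 to 7 lower and 1 higher of these genes, and 3824 to 4425 higher and 3902 to 4444 lower genes in all. Library totals alone gave 6225 higher and 3021 lower genes, against 4449 and 4311 with TMM. DESeq2 gave 3883 higher and 3669 lower. Replicate numbers are not said to pair the samples. Same-numbered libraries had correlations of -0.01, -0.07 and 0.13 of their deviations from the group means. Libraries with different numbers had -0.154 to 0.171, and these values do not settle whether the samples were paired. With the replicate block 4711 genes were higher and 4465 lower, 7 of the 10 genes fell and 1 rose, and no call among them changed. The difference in the VEGFA share of ligand counts, -14.9 percentage points, was -7.32 with no length scaling and -5.96 with the principal transcript; leaving out each library gave -16.1 to -14.2. The difference in the FLT1 share of receptor counts, 6.04, was 6.37 with no length scaling and 5.51 with the longest or the principal transcript; leaving out each library gave 5.95 to 6.11. Length is what these settings change. Depth limits KDR and ANGPTL4: with no filter on low counts edgeR gave adjusted p = 0.894 for KDR and 0.327 for ANGPTL4.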
